A study of Homo sapiens with 15 samples.

Results

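The proteasome is the protease that degrades ubiquitin-tagged proteins, and its subunits are encoded by 4 gene families. PSMA and PSMB genes encode the alpha and beta subunits of the 20S core, a barrel whose inner beta subunits cut proteins, and PSMC and PSMD genes encode the ATPases and the non-ATPase subunits of the 19S regulatory particle, which recognises, unfolds and feeds in the substrates. The proteasome and the lysosome are the main routes of protein degradation in cells, and the transcription factors NRF1 and NRF2 are known to raise proteasome gene transcription through antioxidant response elements. The genes described here are those whose names consist of PSMA, PSMB, PSMC or PSMD and a number, which selected 41 of the 60107 genes listed, under 39 names. They comprised 10 PSMA, 11 PSMB, 6 PSMC and 14 PSMD genes. Of these, 34 passed the filter on low counts and were tested, namely 7 PSMA, 7 PSMB, 6 PSMC and 14 PSMD genes, and 7 were not tested. Among all genes listed, 17.5% were tested.

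RNA was sequenced from MIA PaCa-2, a human pancreatic carcinoma cell line, in 5 groups of 3 libraries with no genetic modification named. The cells received vehicle, the lysosomal autophagy inhibitor Lys05, BAQ12, BAQ13 or an agent labelled BAQ12O, each agent at 5 µM for 24 h. BAQ12 and BAQ13 are lysosome-directed compounds that assemble into nanoparticles and differ by a methylene in the hydrophobic tail, whereas BAQ12O is not named in the text of the paper and is written 12O in the design text. The study asked how these lysosome-directed agents change the transcriptome, and the 20S and 19S genes are compared here between each agent and vehicle and among the agents. The labels do not say whether the 3 libraries of a group came from separate cultures, and the paper names its kinds of replicate in general and not for these libraries, so that the p-values measure the spread between these libraries, which may be technical.

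Levels are given as normalised counts, in which each library's reads are scaled by its size factor. Each library held 1586566 to 2500551 reads on genes (median 2230594), and the 34 tested proteasome genes had 18.6 to 1242 reads per library on average, with a median of 225.2 and with at least 100 for 27 of them. The floor used here is 3 reads, which is a normalised count of 2.49 to 4.14 depending on the library and covers counting error only. The library labelled BAQ12 replicate 3 stood apart, with 1310 genes over 2-fold from the mean of the other BAQ12 libraries, and 39.7% of genes off by more than 0.5 on the log2 scale, against 9.55% to 11.0% in the vehicle and Lys05 libraries. The library BAQ13 replicate 1 deviated in part in the same way, at 19.4% of genes. The BAQ13 libraries were spread, with replicate 3 at 15.9% and replicate 2 at 10.4%. The keratins KRT8, KRT18 and KRT19 were expressed, whereas the epithelial markers EPCAM and CDH1 had at most 1.38 and 6.28 normalised counts in any library. Of 17 markers of fibroblasts, leukocytes, endothelial, acinar and endocrine cells, 14 had at most 6 normalised counts in every library, and the exceptions were CD14 (at most 9.65), CDH5 (at most 75.3) and COL1A2 (at most 252.4). The summed level of the 5 epithelial markers was 1715 to 1795 with vehicle and lay below this range with every agent, at 1362 to 1379 with BAQ13 for example. KRT8 and KRT18 were lower in every library with an agent than in every vehicle library. KRT19 went the other way with BAQ13 (522 to 550) and BAQ12O (513 to 572), where every library lay above vehicle (486 to 509). The part of these levels in the results was not tested.

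The start regions of the proteasome genes are shown first, since one gene of the 19S particle, PSMD3, passed the adjusted threshold and since antioxidant response elements are the known route to their transcription. Promoters (250 bases before and 50 after the start, RefSeq, GRCh38.p14) were available for 34 of the 39 names, including 29 of the 34 tested genes. The core of the antioxidant response element, TGACNNNGC, was searched on both strands and was present in 7 of these 29 promoters (24.1%) and in 13.6% of all 27305 promoters. PSMD3 encodes a lid subunit of the 19S particle, and the 250 bases before its RefSeq start (chr17:39980557-39980806, plus strand) held TGACNNNGC at position -37, TTCNNNGAA (the GAS element) at position -94 and CCAAT on the opposite strand at position -217, counted backwards from the start. These matches are in capitals.

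PSMD3: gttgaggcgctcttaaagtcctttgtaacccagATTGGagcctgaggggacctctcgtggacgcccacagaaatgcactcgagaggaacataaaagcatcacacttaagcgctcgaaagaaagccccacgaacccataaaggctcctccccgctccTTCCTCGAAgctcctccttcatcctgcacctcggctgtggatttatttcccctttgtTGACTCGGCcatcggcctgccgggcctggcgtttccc

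Upstream matches to TGACNNNGC were also found in 4 other tested genes. They are shown with 15 bases on either side, in the direction of the gene, with the match in capitals, for PSMB3 (chr17:38752622-38752660, plus strand), PSMD12 (chr17:67366719-67366757, minus strand), PSMD5 (chr9:120843033-120843071, minus strand) and PSMD9 (chr12:121888673-121888711, plus strand). PSMD9 held another match on the opposite strand at position -149, and the matches of PSMC4 and PSMD1 lay after the start. PSMD3 held another match after the start, on the opposite strand, and another TTCNNNGAA that spanned the start.

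PSMB3: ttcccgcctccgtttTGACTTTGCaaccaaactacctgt
PSMD12: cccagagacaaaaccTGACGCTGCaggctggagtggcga
PSMD5: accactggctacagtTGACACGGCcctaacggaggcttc
PSMD9: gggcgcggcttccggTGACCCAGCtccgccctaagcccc

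The spacer and the flanking bases differ between these genes. The other motifs searched were CCAAT, in 15 of the 29 promoters (51.7%) and in 35.7% of all promoters, GGGCGG (the GC box), in 19 (65.5%) and in 44.6%, TTCNNNGAA, in 3 (10.3%) and in 7.88%, and the core of the interferon-stimulated response element, in 2 (6.9%) and in 3.65%. A match is a description of the letters only, and nothing on the binding of a factor was measured here.

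As a whole, proteasome transcripts took slightly less of each library with BAQ13 and BAQ12O than with vehicle. Reads on the 34 tested genes made up 0.563%, 0.558% and 0.565% of the reads on genes in the vehicle libraries. They made up 0.537%, 0.526% and 0.539% with Lys05, 0.548%, 0.545% and 0.560% with BAQ12, 0.529%, 0.526% and 0.510% with BAQ13 and 0.501%, 0.498% and 0.496% with BAQ12O. All libraries with Lys05, BAQ13 and BAQ12O lay below all vehicle libraries, the BAQ12O libraries lay lowest, and BAQ12 overlapped vehicle through replicate 3. Mitochondrial genes took 19.01% to 20.44% of reads with BAQ12O and 20.6% in BAQ12 replicate 3, against 17.4% to 18.1% with vehicle, 16.9% to 17.4% with Lys05 and 16.5% to 18.7% with BAQ13. Of the reads outside the mitochondrial genes, a denominator chosen after the data were seen, the 34 genes took 0.681% to 0.684% with vehicle, 0.636% to 0.653% with Lys05, 0.611% to 0.650% with BAQ13 and 0.615% to 0.623% with BAQ12O. The libraries with Lys05, BAQ13 and BAQ12O still lay below those with vehicle, whereas the lowest was then a BAQ13 library and BAQ12 replicate 3 was the highest of all, at 0.706%. BAQ12 replicates 1 and 2 lay below all vehicle libraries, at 0.6505% and 0.6525%. These shares are relative to the other RNA of a bulk sample, so that fewer cells of a kind and less RNA per cell cannot be told apart. The median log2 fold change against vehicle over the 34 genes was -0.069 with Lys05, -0.045 with BAQ12, -0.16 with BAQ13 and -0.18 with BAQ12O, where the median over all 10495 genes tested lay between -0.0042 and 0.0018. The log2 fold change was below 0 for 26 of 34 genes with Lys05, against 49.6% of all genes tested. It was below 0 for 20 with BAQ12 (50.2% of all genes), for 24 with BAQ13 (50.5%) and for 28 with BAQ12O (50.5%). The 4 comparisons share the vehicle libraries and are therefore not independent of one another.

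**Figure D1:**
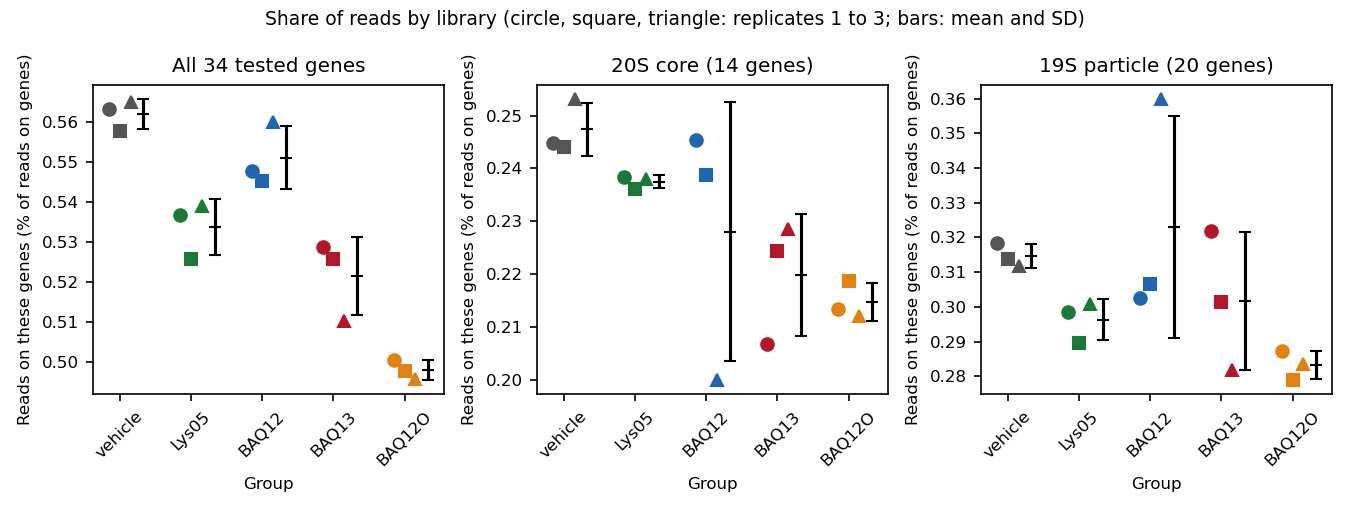
Share of reads on genes (%, vertical axes, which do not start at 0) taken by all 34 tested proteasome genes, the 14 genes of the 20S core and the 20 genes of the 19S particle, by group. Symbols are libraries (circle, square and triangle for replicates 1 to 3) and bars show the mean and SD, with BAQ12O lowest for all genes and with BAQ12 replicate 3 lowest for the 20S core (0.200%) and highest for the 19S particle (0.360%).

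By share of reads, the core and the regulatory particle did not follow the same course in the library that stood apart. The 14 genes of the 20S core took 0.200% of reads in BAQ12 replicate 3 and 0.207% in BAQ13 replicate 1, against 0.245% and 0.239% in the other BAQ12 libraries and 0.224% and 0.229% in the other BAQ13 libraries. The 6 ATPase genes summed to 2294 normalised counts in BAQ12 replicate 3 and to 1746 in BAQ13 replicate 1, whereas the other 13 libraries ranged from 1281 to 1486. PSMC1 alone had 1412 and 992 of these counts in the 2 libraries. In BAQ12 replicate 3, 13 of the 34 genes were off by more than 0.5 on the log2 scale from the mean of the other BAQ12 libraries, between -1.48 (PSMD9) and 1.15 (PSMC1). The ATPase genes PSMC1, PSMC3 and PSMC5 and the lid gene PSMD8 were far higher there, while the 20S genes PSMA1, PSMB1, PSMB3 and PSMB4 and the assembly chaperone genes PSMD5 and PSMD9 were far lower. The deviations of BAQ13 replicate 1 from its own group correlated with those of BAQ12 replicate 3 at r = 0.83 across the 34 genes and at r = 0.57 across 10449 genes. Those of BAQ13 replicate 3 correlated with them in the opposite direction, at r = -0.66 and r = -0.49. The deviations within a group offset one another, so that these negative values follow in part from the positive ones of replicate 1. Genes are not independent replicates, and each value shares its library with the others. The deviations of BAQ12 replicate 3 correlated with the GC content of the transcript at r = 0.18 across the proteasome genes and at r = 0.27 across all genes. The part of this in the results was not tested.

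**Figure D2:**
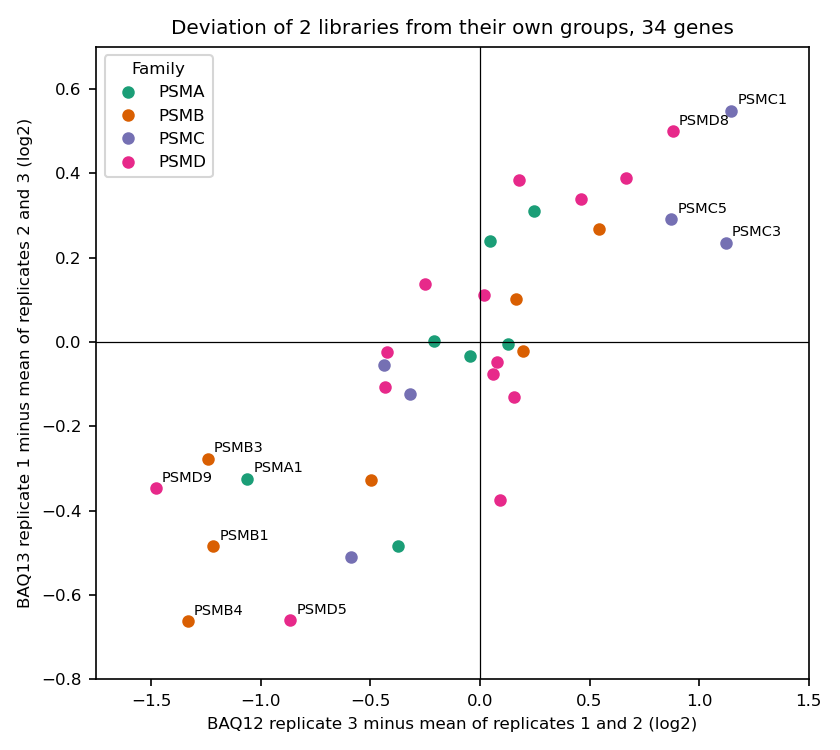
Deviation of BAQ12 replicate 3 from the mean of the other BAQ12 libraries (horizontal axis, log2) against that of BAQ13 replicate 1 from the other BAQ13 libraries (vertical axis, log2) for the 34 tested genes, coloured by family. PSMC1 lies at the upper right, at 1.15 on the horizontal axis, PSMB4 and PSMD9 lie at the lower left, and genes over 0.7 from 0 on the horizontal axis are named.

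PSMC1 had the highest deviation in BAQ12 replicate 3. Its product is an ATPase of the ring that unfolds substrates and opens the gate of the core. PSMC1 had 681.6, 649 and 655 normalised counts with vehicle, 594, 656 and 633 with Lys05, 613, 663 and 1412 with BAQ12, 992, 715 and 642 with BAQ13, and 631, 659.7 and 678 with BAQ12O. BAQ12 replicate 3 and BAQ13 replicate 1 were the highest of all 15 libraries, and the remaining libraries of these groups overlapped vehicle or lay close to it. The log2 fold change against vehicle was 0.33 (standard error, SE, 0.22, limma adjusted p = 0.538) with BAQ12 and 0.22 (SE 0.22, adjusted p = 0.65) with BAQ13. It was -0.054 with BAQ12 when BAQ12 replicate 3 was omitted and 0.034 with BAQ13 when BAQ13 replicate 1 was omitted (limma adjusted p = 0.946 and 0.971). PSMD8, the gene of another lid subunit, had 393.5, 352 and 324 normalised counts with vehicle, 357, 394 and 691 with BAQ12 and 551, 437.5 and 346 with BAQ13. BAQ12 replicate 3 and BAQ13 replicate 1 were again the highest libraries, and the fold change was 0.37 on the log2 scale with BAQ12 (adjusted p = 0.449) and 0.30 with BAQ13 (adjusted p = 0.434). Without the highest library of each group these values were 0.078 and 0.13.

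**Figure D3:**
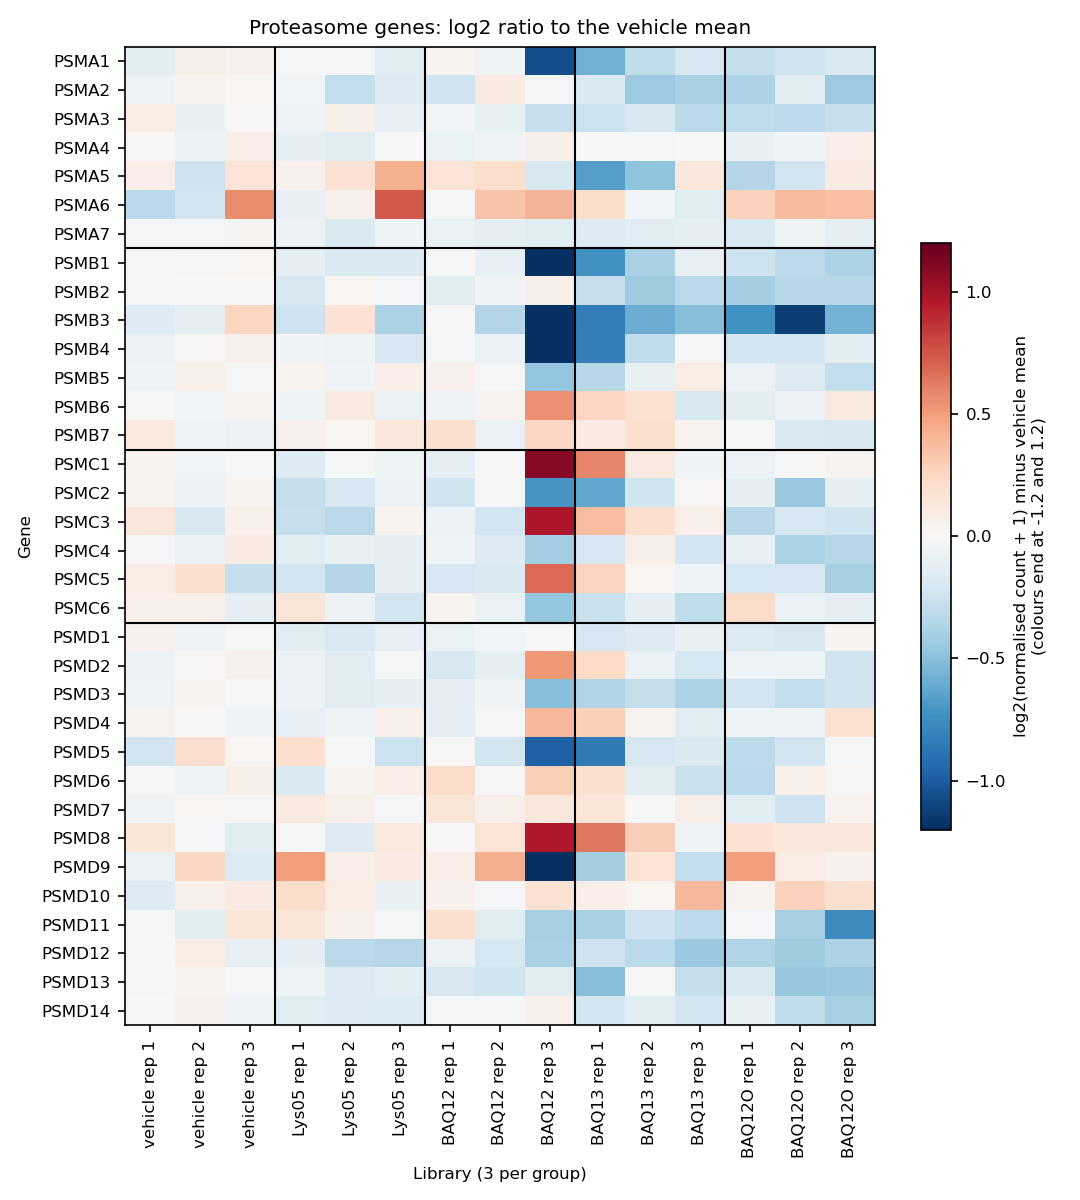
Log2 ratio of each library to the vehicle mean for the 34 tested genes (rows, by family) and the 15 libraries (columns, 3 per group), with colours ending at -1.2 and 1.2. The column of BAQ12 replicate 3 holds the strongest colours in both directions, and PSMB3 is blue in all BAQ13 and BAQ12O libraries.

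With Lys05, a dimeric chloroquine derivative, no proteasome gene passed an adjusted p of 0.05. By limma, 0 of the 34 genes passed, against 0.238% of all genes tested (0.0762% higher and 0.162% lower), and edgeR and DESeq2 on the recovered reads gave 0 as well. At an unadjusted p under 0.05, 1 gene was lower (PSMD12; 2.16% of all genes) and none was higher (2.82%). No gene passed without BAQ12 replicate 3 (0.238% of all genes higher and 0.248% lower) or in a fit of the 6 Lys05 and vehicle libraries alone (0.524% and 0.572%). In 8 genes, PSMA7, PSMB1, PSMC4, PSMD1, PSMD3, PSMD12, PSMD13 and PSMD14, every Lys05 library lay below every vehicle library, compared with 7.37% of all genes tested, and in none did every library lie above (8.24% of all genes). PSMD12 encodes a lid subunit and had 298, 316 and 278 normalised counts with vehicle and 274.7, 237 and 233 with Lys05. The groups did not overlap, and the log2 fold change of -0.26 (SE 0.10) had an adjusted p of 0.835 by limma. The family medians were -0.061 for PSMA, -0.065 for PSMB, -0.15 for PSMC and -0.030 for PSMD.

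BAQ12 gave 0 of 34 genes at an adjusted p under 0.05 by limma, against 0.981% of all genes tested (0.572% higher and 0.41% lower), 0 by edgeR and 0 by DESeq2. At an unadjusted p under 0.05, 3 genes were lower (PSMB3, PSMD3 and PSMD12; 5.52% of all genes) and none was higher (6.29%). Their log2 fold changes were -0.59, -0.22 and -0.22, and -0.17, -0.082 and -0.14 without BAQ12 replicate 3. Every BAQ12 library lay below every vehicle library for PSMA7, PSMD3 and PSMD13 (7.61% of all genes) and above for PSMD7, which encodes the partner of the deubiquitinase of the lid (7.75% of all genes). PSMD7 had 316, 333 and 330.5 normalised counts with vehicle and 361, 341 and 355.5 with BAQ12, a log2 fold change of 0.11 (SE 0.087, limma adjusted p = 0.606). Without BAQ12 replicate 3, 0 genes passed as well (0.743% of all genes higher and 0.562% lower), as in the fit of the 6 libraries alone (0.143% and 0.152%). All comparisons share 1 estimate of the spread, to which this library contributes.

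By limma over all 15 libraries, the lid gene PSMD3 with BAQ13 was the only proteasome gene past the adjusted threshold in a comparison with vehicle. It had 541, 568 and 558 normalised counts with vehicle, 529, 506 and 517 with Lys05, 512, 539 and 391 with BAQ12, 434, 455 and 428 with BAQ13, and 473, 454 and 471.5 with BAQ12O. All BAQ13 libraries and all BAQ12O libraries lay below all vehicle libraries, and BAQ12 replicate 3 was the lowest of all. PSMD3 fell with BAQ13 to a mean of 439.0 from 556 with vehicle (n = 3 each), a log2 change of -0.34 (SE 0.097, 95% confidence interval -0.55 to -0.13, limma adjusted p = 0.0486). The call was close to the threshold. With any 1 of the 6 libraries omitted it was lost, at a limma adjusted p of 0.0934 to 0.158, while the value was 0.000870 without BAQ12 replicate 3. In the 6 fits that omit a BAQ13 or vehicle library, the log2 change lay between -0.37 and -0.32, with a SE of 0.11. The call was lost as well with no filter on low counts (0.0939). In all, 1 of 34 proteasome genes was called by limma, against 5.77% of all genes tested, and 1 was called lower, against 2.19%. By edgeR 3 genes were called (PSMB2, PSMD3 and PSMD12), by DESeq2 1, and by limma with TMM factors 2. Of all 10495 genes tested, these fits called 689, 530 and 613, with 279, 191 and 240 of them lower. At an unadjusted p under 0.05, 7 genes were lower (PSMA2, PSMA3, PSMB2, PSMB3, PSMD3, PSMD12 and PSMD13; 9.09% of all genes) and none was higher (10.4%). In 12 genes every BAQ13 library lay below every vehicle library (14.4% of all genes), namely PSMA1, PSMA2, PSMA3 and PSMA7, PSMB1, PSMB2 and PSMB3, and PSMD1, PSMD3, PSMD11, PSMD12 and PSMD14, and in none did every library lie above (14.5%).

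The count of BAQ13 calls depended on the library that stood apart. With BAQ12 replicate 3 left out of the shared estimate of the spread, 8 of the 34 genes fell with BAQ13 at an adjusted p under 0.05 by limma, where 6.47% of all genes tested were called lower, and none rose (7.26%). They were PSMA1 and PSMA3, all 4 tested beta genes outside the catalytic sites (PSMB1, PSMB2, PSMB3 and PSMB4) and PSMD3 and PSMD12. With a fit of only the 6 BAQ13 and vehicle libraries, 4 genes were called lower (PSMA1, PSMB3, PSMD3 and PSMD12), against 3.79% of all genes, and none higher (5.23%).

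PSMB3, which encodes a beta subunit without a catalytic site, had the largest decrease of the PSMB family in all 4 comparisons with vehicle. It had 64.8, 67.0 and 86.3 normalised counts with vehicle, 60.7, 81.2 and 55.1 with Lys05, 72.5, 56.1 and 26.4 with BAQ12, 40.1, 47.4 and 50.3 with BAQ13, and 43.1, 32.4 and 48.3 with BAQ12O. The BAQ13 and BAQ12O libraries all lay below the lowest vehicle library, and Lys05 and BAQ12 overlapped vehicle. The log2 fold change was -0.65 (SE 0.28, limma adjusted p = 0.202) with BAQ13 and -0.81 (SE 0.28, adjusted p = 0.197) with BAQ12O. Without BAQ12 replicate 3, PSMB3 fell with both agents by these values, with adjusted p = 0.0143 and 0.00591 and a SE of 0.18.

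PSMB2, another beta subunit without a catalytic site, was the most even of these genes among the vehicle libraries. It had 167.7, 169 and 168 normalised counts with vehicle, 147, 171 and 165 with Lys05, 153, 163 and 177 with BAQ12, 139, 125 and 134 with BAQ13, and 126, 133.5 and 132 with BAQ12O. Every BAQ13 and BAQ12O library lay below every other library. The log2 fold change was -0.34 (SE 0.098, limma adjusted p = 0.0506) with BAQ13 and -0.36 (SE 0.098, adjusted p = 0.0858) with BAQ12O, and both passed the threshold without BAQ12 replicate 3 (limma adjusted p = 0.0184 and 0.0276).

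PSMB1 and PSMB4, structural beta subunits as well, had widely spread BAQ12 and BAQ13 libraries. PSMB4 had 369.5, 392 and 405 normalised counts with vehicle, 382, 368 and 148 with BAQ12, 219, 313.5 and 385.5 with BAQ13, and 331, 332 and 353 with BAQ12O. PSMB1 had 462, 459 and 473 with vehicle, 462, 433.5 and 192 with BAQ12, 279.9, 355 and 432.5 with BAQ13, and 387, 373 and 357 with BAQ12O. The BAQ13 libraries were widely spread in both genes, with replicate 1 lowest, and overlapped vehicle for PSMB4 but not for PSMB1, whereas the BAQ12O libraries lay close together and below vehicle. Without BAQ12 replicate 3 the log2 fold change with BAQ13 was -0.41 for PSMB1 (limma adjusted p = 0.00580) and -0.38 for PSMB4 (adjusted p = 0.0305). Without BAQ13 replicate 1 it was -0.24 for PSMB1 and -0.16 for PSMB4 (limma adjusted p = 0.721 and 0.857). PSMB1, PSMB2, PSMB4, PSMA3, PSMA4, PSMA5, PSMA7, PSMC3 and PSMD1, PSMD2, PSMD4, PSMD6, PSMD7, PSMD10, PSMD13 and PSMD14 are described outside the rule for named genes, after their values were seen.

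**Figure D4:**
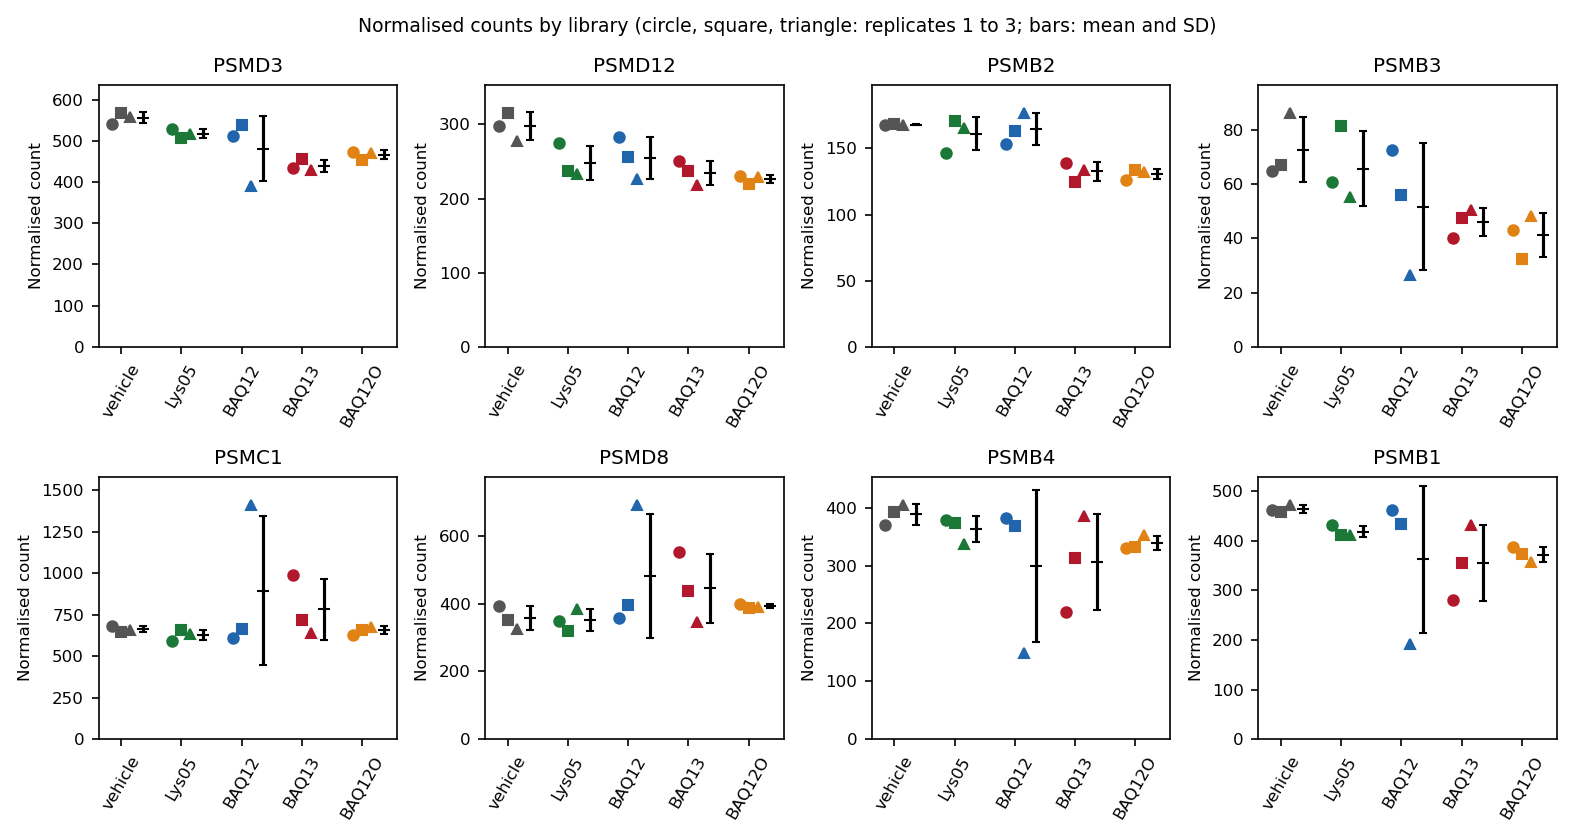
Normalised counts by library for PSMD3, PSMD12, PSMB2, PSMB3, PSMC1, PSMD8, PSMB4 and PSMB1 in the 5 groups, with vertical axes from 0. Symbols are libraries (circle, square and triangle for replicates 1 to 3) and bars show the mean and SD, with BAQ12 replicate 3 at 1412 for PSMC1 and at 148 for PSMB4.

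The 3 catalytic beta subunits differed from the structural ones in their values, with a median log2 fold change of 0.083 with BAQ13 against -0.39 for the 4 structural genes, a difference that was not tested. Without BAQ13 replicate 1 these medians were -0.0027 and -0.31. PSMB5, the chymotrypsin-like subunit and the site that proteasome inhibitors bind best, had 492, 533 and 503 normalised counts with vehicle, 405, 478 and 540.6 with BAQ13 and 484, 457 and 415 with BAQ12O. The BAQ12O libraries lay below vehicle and BAQ13 overlapped it, and the log2 fold change was -0.11 with BAQ13 (95% confidence interval -0.38 to 0.15, limma adjusted p = 0.697) and -0.17 with BAQ12O (-0.44 to 0.090, adjusted p = 0.605). PSMB6, the caspase-like subunit, had log2 fold changes of -0.0088, 0.18, 0.083 and -0.026 with Lys05, BAQ12, BAQ13 and BAQ12O. PSMB7, the trypsin-like subunit, had log2 fold changes of 0.068, 0.12, 0.11 and -0.13 in the same order. The value of PSMB6 was 0.0023 with BAQ12 without BAQ12 replicate 3 and -0.0068 with BAQ13 without BAQ13 replicate 1. None of these passed the adjusted threshold, and adjusted p ranged upwards from 0.579 for PSMB6 and from 0.598 for PSMB7 by limma.

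The inducible catalytic subunits that replace these in the immunoproteasome of immune and interferon-treated cells were at or near the floor. PSMB8 had 12 reads in all 15 libraries, with at most 2 in a library, and PSMB10 had 3, with at most 1. PSMB9 had 38 reads in 14 of 15 libraries and at most 8, in BAQ13 replicate 3, where its normalised count was 6.71. BAQ12O replicate 1 was next at 5.39 and all other libraries were at 2.80 or below, so that no difference between the groups was detectable at this depth. By contrast, PSME1 and PSME2, which encode the 11S activator that also pairs with immunoproteasomes, had 318 ± 17.6 and 279.7 ± 18.0 normalised counts with vehicle (SD, n = 3). Their log2 fold changes lay between -0.12 and 0.14 in the 4 comparisons with vehicle, none past an adjusted p of 0.05 by limma. The testis form PSMA8 and the thymus form PSMB11 had 0 reads. The other genes not tested were the identifiers that carry the names PSMA1 and PSMA2 a second time, ENSG00000256206 (1 read) and ENSG00000256646 (0 reads), which GENCODE 29 places over exons of PSMA1 and COPB1 and of PSMA2 and C7orf25. Exons of PSMA1, PSMA2, PSMA6 and PSMD9 share 24.7%, 14.6%, 14.1% and 19.9% of their bases with other genes of the same strand, so that their counts may miss ambiguous reads.

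Among the alpha subunits, which form the outer rings and the gate, PSMA1 had 351, 404 and 399 normalised counts with vehicle, 393, 374 and 183 with BAQ12, 257, 309.9 and 334 with BAQ13, and 316, 325 and 339 with BAQ12O. All BAQ13 and BAQ12O libraries lay below all vehicle libraries, and BAQ12 replicate 3 was the lowest of all. Its log2 fold change with BAQ13 was -0.36 (SE 0.20, limma adjusted p = 0.333), and it passed the threshold without BAQ12 replicate 3 (SE 0.089, limma adjusted p = 0.00591). Without BAQ13 replicate 1 it was -0.26 (SE 0.22, limma adjusted p = 0.656), in a fit that kept BAQ12 replicate 3 in the shared spread. PSMA2 had 143, 154 and 151.5 with vehicle, 132.5, 110.3 and 114 with BAQ13, and 115, 136 and 110.3 with BAQ12O, again without overlap with vehicle. Its log2 fold changes were -0.33 (limma adjusted p = 0.13) and -0.31 (adjusted p = 0.266). PSMA3 had 246 ± 2.99 with BAQ12O (SD, n = 3) and 303 ± 18.3 with vehicle (SD, n = 3), a log2 fold change of -0.30 (SE 0.090, limma adjusted p = 0.123), which was past the threshold without BAQ12 replicate 3 (adjusted p = 0.0309). PSMA4 was the most even, with log2 fold changes between -0.078 and -0.0063 in the 4 comparisons. PSMA6, the least counted of the 34 genes, had 12.5, 13.4 and 23.9 normalised counts with vehicle and 19.4, 21.0 and 20.7 with BAQ12O, and its log2 fold change was the highest of the alpha genes in all 4 comparisons, at 0.013 to 0.34, with overlapping libraries throughout.

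BAQ12O, the agent with the lowest proteasome share of reads, gave 0 of 34 genes at an adjusted p under 0.05 by limma, against 1.48% of all genes tested (0.934% higher and 0.543% lower), and 0 by edgeR and by DESeq2. At an unadjusted p under 0.05, 10 genes were lower (PSMA2, PSMA3, PSMB2, PSMB3, PSMC4, PSMD3, PSMD11, PSMD12, PSMD13 and PSMD14; 6.01% of all genes) and none was higher (6.75%). In 16 genes every BAQ12O library lay below every vehicle library (13.3% of all genes), 9 of the 14 genes of the 20S core and 7 of the 20 genes of the 19S particle, and in none did every library lie above (12.5%). Without BAQ12 replicate 3, 5 genes fell at an adjusted p under 0.05 by limma, PSMA3, PSMB2, PSMB3, PSMD3 and PSMD12, where 2.31% of all genes were called lower, and none rose (2.69%). With only the 6 libraries compared, 8 genes fell, these 5 with PSMB1, PSMD11 and PSMD13, against 4.24% of all genes, and none rose (4.06%). The fold changes are the same in each fit, since they come from the BAQ12O and vehicle libraries alone, which include neither library that stood apart, whereas the spread behind the counts of 0 and 5 was shared with the other groups.

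PSMD12 had 231, 220.2 and 229 normalised counts with BAQ12O, 250.1, 237 and 218 with BAQ13 and, as given above, 278 to 316 with vehicle. The libraries of both agents lay below vehicle without overlap. Its log2 fold change was -0.39 with BAQ12O (SE 0.10, limma adjusted p = 0.0717) and -0.34 with BAQ13 (SE 0.10, adjusted p = 0.0598), and it was past the threshold without BAQ12 replicate 3 (adjusted p = 0.00844 and 0.0104). PSMD11, another lid gene, had 180.2, 162 and 198 with vehicle and 177, 136 and 106 with BAQ12O, with overlap and a log2 fold change of -0.39 (limma adjusted p = 0.307). PSMD14, the deubiquitinase of the lid, had 204, 212 and 197 with vehicle, 174.5, 187 and 174 with BAQ13 and 192, 165 and 154 with BAQ12O, without overlap between either agent and vehicle. Its log2 fold changes were -0.20 (limma adjusted p = 0.272) and -0.27 (adjusted p = 0.213). PSMD13, a lid subunit, had a log2 fold change of -0.36 with BAQ12O (limma adjusted p = 0.198). PSMD1 and PSMD2, the large scaffold subunits of the base, and PSMD4, a ubiquitin receptor, had log2 fold changes between -0.15 and 0.064 with BAQ13 and BAQ12O. The lid gene PSMD6 lay at -0.068 with BAQ13 and -0.083 with BAQ12O. The assembly chaperone genes PSMD5, PSMD9 and PSMD10 had -0.18, 0.21 and 0.17 with BAQ12O and -0.41, -0.18 and 0.16 with BAQ13, none past the threshold. Without BAQ13 replicate 1 the values of PSMD5 and PSMD9 with BAQ13 were -0.19 and -0.064.

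The ATPase genes had a median log2 fold change of -0.24 with BAQ12O and of -0.023 with BAQ13. PSMC4 had 199, 189.8 and 215 normalised counts with vehicle and 188, 154 and 158.5 with BAQ12O, without overlap, and its log2 fold change was -0.27 (SE 0.12, limma adjusted p = 0.33). PSMC2, PSMC3, PSMC5 and PSMC6 had -0.22, -0.26, -0.27 and 0.016 with BAQ12O and -0.28, 0.21, 0.075 and -0.23 with BAQ13. Without BAQ13 replicate 1, PSMC3 and PSMC5 were at 0.13 and -0.023 with BAQ13. PSMA5 and PSMA7, the remaining alpha genes, had -0.16 and -0.11 with BAQ12O and -0.34 and -0.13 with BAQ13, where PSMA5 was at -0.18 without BAQ13 replicate 1. No proteasome gene had a fold change of at least 2 with an unadjusted limma p of at most 0.05 in any comparison. Against vehicle, 0.543% (Lys05), 1.03% (BAQ12), 2.16% (BAQ13) and 0.953% (BAQ12O) of all genes tested did. The study used these cut-offs for its own calls, but with a t test and another set of genes, so that its counts are not matched by these shares.

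**Figure D5:**
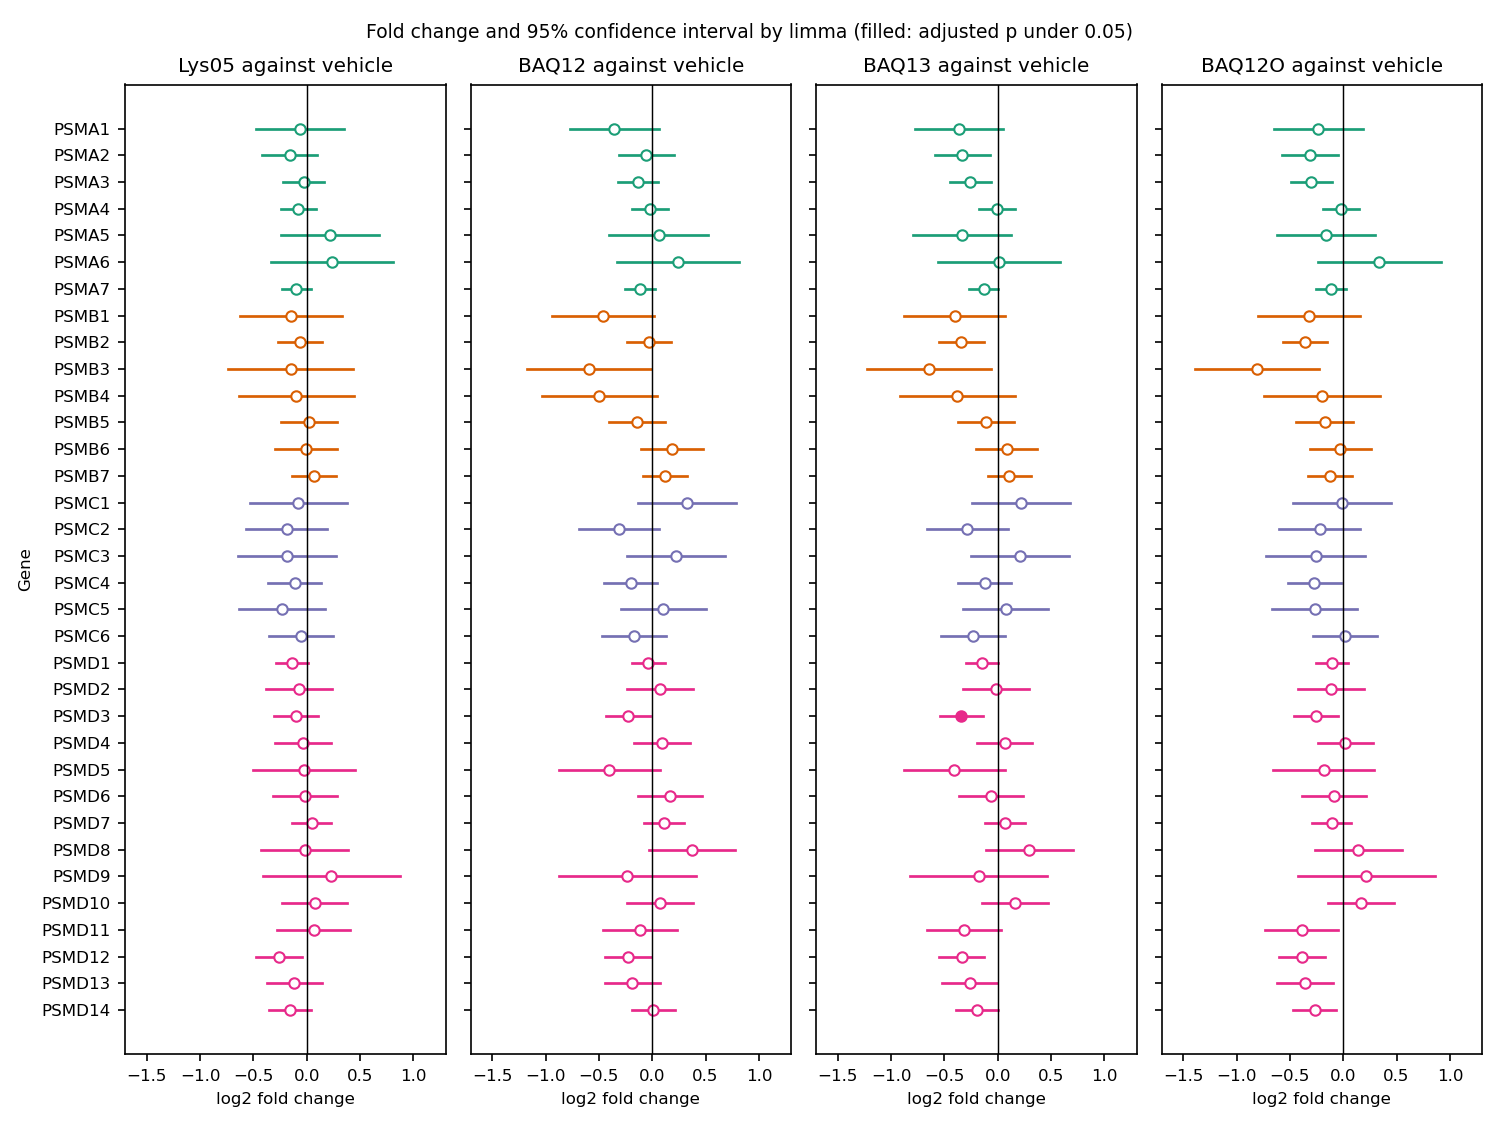
Log2 fold change against vehicle (horizontal axes) with its 95% confidence interval by limma for the 34 tested genes in the 4 comparisons, coloured by family, with filled points for an adjusted p under 0.05. PSMD3 with BAQ13 is the only filled point, at -0.34, and most points with BAQ12O lie left of 0.

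Among the agents themselves, compared at the same dose and time, no proteasome gene was called by limma, edgeR or DESeq2. BAQ13 and BAQ12 gave 0 of 34 genes (0.562% of all genes tested) and 3 at an unadjusted p under 0.05 (PSMA2, PSMB2 and PSMD14, all lower with BAQ13; 3.37% of all genes lower and 4.9% higher). Every BAQ13 library lay below every BAQ12 library for PSMB2, PSMD1 and PSMD14 (4.75% of all genes). For PSMD3 the log2 difference of BAQ13 from BAQ12 was -0.12 (95% confidence interval -0.32 to 0.089, limma adjusted p = 0.842), and for PSMB2 it was -0.31 (-0.51 to -0.10, adjusted p = 0.283). BAQ13 and Lys05 gave 0 (2.66% of all genes) and 5 at an unadjusted p under 0.05 (PSMA3, PSMA5, PSMB2, PSMD3 and PSMD11, all lower with BAQ13; 6.75% of all genes lower and 7.85% higher), with PSMD3 at -0.24 (-0.44 to -0.032, adjusted p = 0.262). Every BAQ13 library lay below every Lys05 library for 6 genes (PSMA1, PSMA3, PSMB2, PSMB3, PSMD3 and PSMD11; 11.5% of all genes) and above for the ATPase genes PSMC3 and PSMC5 (12.3%). BAQ12 and Lys05 gave 0 at the adjusted threshold (0.162% of all genes) and 0 at an unadjusted p under 0.05 (3.69% of all genes higher and 3.48% lower), with every BAQ12 library above for PSMD1 and PSMD14 (5.49%). BAQ12O and BAQ12 gave 0 (0.229%) and 5 at an unadjusted p under 0.05 (PSMB2, PSMB7, PSMC3, PSMD7 and PSMD14, all lower with BAQ12O; 3.73% of all genes lower and 4.65% higher), with PSMB2 at -0.33 (-0.54 to -0.12, adjusted p = 0.327). Without BAQ12 replicate 3, PSMA1 was lower with BAQ13 than with BAQ12 (log2 difference -0.36, limma adjusted p = 0.0443), where 1.46% of all genes were called lower. PSMA1 and PSMD3 were then lower with BAQ13 than with Lys05 (-0.30 and -0.24, adjusted p = 0.0341 and 0.029) and PSMC3 was higher (0.39, adjusted p = 0.0357), where 3.54% of all genes were called lower and 4.21% higher. A p above the threshold does not show that the agents acted alike.

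Of 39 other tested genes of the pathway, chosen by function, 5 changed with BAQ13 (3 higher and 2 lower, against 3.58% and 2.19% of all genes tested) and none with Lys05, BAQ12 or BAQ12O at an adjusted p under 0.05 by limma. UBB, a polyubiquitin gene that supplies free ubiquitin, rose with BAQ13. It had 2371 ± 69.3 with vehicle and 2851 ± 75.8 with BAQ13 (SD, n = 3 each), a log2 fold change of 0.27 (limma adjusted p = 0.0364). This call was lost with any 1 of the 6 libraries omitted (0.0740 to 0.132) and with the replicate number as a block (0.0535). UBA1, the main ubiquitin-activating enzyme, fell with BAQ13, to 702 ± 41.5 from 857.5 ± 36.2 (SD, n = 3 each), by 0.29 on the log2 scale (limma adjusted p = 0.0253). The call was lost in 5 of the 6 fits that omit a BAQ13 or vehicle library (up to 0.127) and held only without BAQ13 replicate 1 (0.0429).

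Of the genes of antigen presentation, IRF1, an interferon-responsive transcription factor that drives immunoproteasome genes, had 26.6, 23.4 and 21.1 normalised counts with vehicle and 47.6, 51.0 and 43.6 with BAQ13, without overlap. It rose by 0.97 on the log2 scale (SE 0.22, limma adjusted p = 0.0113), a call lost without vehicle replicate 3 or BAQ13 replicate 2 (up to 0.0629). TAPBP, the peptide-loading chaperone tapasin, rose to 479 ± 109.2 from 279.6 ± 28.4 (SD, n = 3 each; log2 fold change 0.76, adjusted p = 0.0305), with BAQ13 replicate 1 and BAQ12 replicate 3 as the highest libraries, at 605 and 618. Its call was lost without any of the vehicle libraries, BAQ13 replicate 1 or BAQ13 replicate 2 (up to 0.152, at a log2 fold change of 0.58 without BAQ13 replicate 1) and with the replicate number as a block (0.0511). TAP2, a peptide transporter whose gene lies beside PSMB8 and PSMB9, fell to 17.2 ± 6.26 from 39.0 ± 2.36 (SD, n = 3 each; log2 fold change -1.19, adjusted p = 0.00530). NFE2L1, which encodes NRF1, had 86.7 ± 14.4 normalised counts with vehicle and 109.9 ± 15.8 with BAQ13 (SD, n = 3 each), a log2 fold change of 0.34 (SE 0.18, limma adjusted p = 0.319). POMP, the assembly chaperone of the 20S core, had log2 fold changes between -0.11 and 0.088 against vehicle.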

How the data were processed

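RNA from MIA PaCa-2 cells was analysed in 15 libraries, 3 per group, as grouped by the sample labels. The authors deposited a signal per gene and library obtained by dividing gene-level reads by one size factor per library, and the submitters' processing notes name STAR, HTSeq, DESeq2 and GRCh38 (hg38). The methods name a stranded paired-end kit and the labels a 3′-end kit, which remained unresolved. Whole reads were recovered from the deposited signal (100% of values whole in each library, tolerance 0.01), and the 92 spike-in rows had 0 reads. Genes were filtered with filterByExpr on these reads (minimum count 10, minimum total 15), which left 10495 genes. The main test was limma (eBayes with a trend) on log2(value + 1) over all 15 libraries without covariates, in 8 comparisons, with Benjamini-Hochberg adjustment over the genes tested and a threshold of 0.05. Fold changes on this scale understate the change of low genes. For BAQ13 against vehicle, 689 genes were called by edgeR (quasi-likelihood test, recovered reads), 530 by DESeq2 and 606 by limma. The other alternatives were TMM factors, a pseudocount of 5, other filters, leaving out libraries, a replicate block, a share of reads outside the mitochondrial genes (added after the data were seen) and fits restricted to the 6 libraries of a comparison.

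Members and gene lists were chosen with earlier results of these data known. The genes to be named were the catalytic and immunoproteasome subunits, members past the threshold, the highest and lowest fold change of each family in each comparison with vehicle, members not tested, pathway genes past the threshold against vehicle, and PSME1, PSME2, POMP and NFE2L1. Gene overlaps came from GENCODE 29, in which 56531 of the 60107 identifiers are found, and promoters from RefSeq (GRCh38.p14). One further gene of the fixed pathway lists is not reported here. The limma, edgeR and DESeq2 fits were tested on simulated reads for BAQ13 against vehicle. They recovered 6%, 6% and 5% of changes of 1.25-fold, or 12.8%, 12.8% and 10.3% among genes with at least 100 reads. Of 2-fold changes they recovered 66%, 68% and 58%. The lack of a call for a proteasome gene therefore does not show that a change near 1.25-fold was absent. R 4.3.3 was used with DESeq2 1.42.0, edgeR 4.0.16 and limma 3.58.1, and Python 3.11.15 with matplotlib 3.10.9, pandas 2.3.3 and numpy 2.4.6.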

Additional observations from a re-analysis of the deposited data

Results flagged for a closer look

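Direct tests between agents differed for genes of the pathway outside the subunits. UBB was higher with BAQ13 than with Lys05 by 0.30 (SE 0.072, limma adjusted p = 0.0308), in 3 of 3 libraries, a call lost with any 1 of the 6 libraries omitted (0.0738 to 0.119). IRF1 was higher with BAQ13 than with Lys05 by 1.235 on the log2 scale (SE 0.22, limma adjusted p = 0.00279), in 3 of 3 libraries. TAP2 differed between BAQ13 and Lys05 by -1.22 on the log2 scale (SE 0.24, limma adjusted p = 0.00751), with all 3 BAQ13 libraries lower.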

How the results depend on the processing

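For the count of proteasome genes called and for their median log2 fold change, 99 of 116 and 103 of 116 values stayed equal to the reported count or within 1.5 times of it, and within 1 SD between libraries of the reported median. The 1 gene called with BAQ13 against vehicle became 3 with edgeR's quasi-likelihood test, 2 with TMM factors, 3 with at least 10 reads in every library, 4 with only the 6 libraries compared, and 0 with no filter on low counts, where more genes entered the adjustment. With the replicate number as a block it became 0. Of all 10495 genes tested, 606 were called in the main fit, 689 with edgeR and 613 with TMM factors. The fit of only the 6 libraries called 947 and the block 512. The filter of at least 10 reads called 624 of 8320 genes, and no filter 470 of 22539. Leaving out a library gave 0 to 8, where 8 is the count without BAQ12 replicate 3 and each BAQ13 or vehicle library left out gave 0. For BAQ12O against vehicle the count of 0 became 8 with only the 6 libraries compared and ranged from 0 to 5 on leaving out a library. It ranged from 0 to 3 for BAQ13 against Lys05 and from 0 to 1 for BAQ13 against BAQ12. The median for BAQ12O against vehicle was -0.14 with no filter on low counts, and that for BAQ13 against BAQ12 was -0.11 with edgeR and with DESeq2. On leaving out a library, the medians ranged from -0.091 to -0.060 for Lys05, from -0.070 to -0.0031 for BAQ12, from -0.22 to -0.13 for BAQ13 and from -0.20 to -0.16 for BAQ12O against vehicle. They ranged from -0.025 to 0.020 for BAQ12 against Lys05, from -0.11 to -0.039 for BAQ13 against Lys05, from -0.16 to -0.057 for BAQ13 against BAQ12 and from -0.15 to -0.092 for BAQ12O against BAQ12. The log2 ratio of the proteasome share of reads with BAQ12O to that with vehicle was -0.17, and -0.14 over reads outside the mitochondrial genes. Of 1593 values of named genes, 1495 kept direction and side of the threshold, 30 lost the call, 19 gained it and 49 changed sign, in 28 of 108 results, 0 of them called in either fit. For these 28 results the log2 fold changes against vehicle on leaving out a library ranged as follows. With Lys05 they were -0.011 to 0.52 for PSMA6, -0.0045 to 0.057 for PSMB5, -0.066 to 0.028 for PSMB6, -0.15 to 0.035 for PSMC6, -0.0095 to 0.14 for PSMD11, -0.14 to 0.092 for PSMD5, -0.088 to 0.053 for PSMD8, -0.076 to 0.025 for PSME2 and -0.013 to 0.071 for TAP2. With BAQ12 they were -0.058 to 0.10 for IRF1, -0.13 to 0.037 for PSMA2, -0.24 to 0.021 for PSMB5, -0.054 to 0.55 for PSMC1, -0.19 to 0.25 for PSMC5, -0.27 to 0.032 for PSMD11, -0.57 to 0.26 for PSMD9, -0.033 to 0.058 for PSME1, -0.13 to 0.23 for PSME2 and -0.014 to 0.086 for UBB. With BAQ13 they were -0.15 to 0.29 for PSMA6 (-0.051 with edgeR and -0.046 with DESeq2), -0.0068 to 0.22 for PSMB6, -0.066 to 0.17 for PSMC5 and -0.019 to 0.060 for PSME1. With BAQ12O they were -0.037 to 0.41 for IRF1, -0.096 to 0.024 for PSMB6, -0.037 to 0.016 for PSMC1, -0.092 to 0.078 for PSMC6 and -0.051 to 0.040 for PSME2 (-0.0065 with edgeR and -0.0032 with TMM factors). The cause of these changes was not tested apart from the filter.

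Deviations of same-numbered libraries from their group means correlated between -0.49 and 0.20 across genes. With 3 libraries per group such deviations offset one another, so that these values cannot settle whether same-numbered libraries were handled together. As a block the replicate number changed the count of proteasome genes called only with BAQ13 against vehicle (0, with PSMD3 at a limma adjusted p of 0.0658). UBB and TAPBP lost their calls in that comparison too. At this depth no difference in PSMB8, PSMB9 or PSMB10 was detectable.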
